A study of Homo sapiens with 12 samples.

Results

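The response to oxidants and the glutathione system was followed through 10 genes, chosen by symbol among the 60448 genes counted: NFE2L2, KEAP1, GCLC, GCLM, NQO1, HMOX1, TXNRD1, SRXN1, SLC7A11 and GPX4. Each of the 10 was found as 1 gene in the count table, and each had enough counts to be tested in every comparison. RNA sequencing covered 12 libraries of 786-O, an established cell line derived from a human clear cell renal cell carcinoma (ccRCC). All cells, the controls included, had been grown in medium with serum and transiently transfected with a small interfering RNA (siRNA), which pairs with a chosen mRNA and brings about its breakdown. The 4 groups of 3 libraries were a control siRNA (siNC) and siRNAs against GABPA (siGABPA), a subunit of an ETS family transcription factor, GPD1L (siGPD1L), a glycerol-3-phosphate dehydrogenase-like enzyme, and BRD9 (siBRD9), a bromodomain subunit of a SWI/SNF chromatin remodeling complex. A transient knockdown lowers the target for a limited time and in part of the mRNA, each group rests on this 1 line, and the sources do not name which of the study's GABPA siRNAs was sequenced. The paper describes the sequencing of GABPA-depleted cells as coming from independent experiments, while the labels do not say how the libraries of a group were obtained.

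The transcription factor NRF2, the product of NFE2L2, is held low in resting cells because KEAP1 presents it to a CUL3 ubiquitin ligase for degradation. Oxidants and electrophiles modify KEAP1, NRF2 then accumulates, pairs with a small MAF protein and binds the antioxidant response element (ARE) of genes for glutathione synthesis, quinone reduction and thioredoxin recycling. Glutathione is made from cystine brought in by SLC7A11 and is spent by GPX4, which reduces lipid peroxides. Cells that lose this protection die by ferroptosis, an iron-dependent death through lipid peroxidation to which ccRCC cells are known to be sensitive. Because NRF2 is regulated mostly as a protein, the mRNA of NFE2L2 says little about its activity, and protein was not measured in these libraries.

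Some members carry ARE core letters close to a start site, of which a gene can have more than 1. RefSeq promoter windows on GRCh38.p14, which run from 250 bases before to 50 bases after the start, were found for 8 of the 10 genes (13 windows). The core TGACNNNGC, searched on both strands, occurred in windows of GCLM, KEAP1 and TXNRD1, and in 13.3% of all 35116 windows. These windows held 6 matches of the core in all, and KEAP1 and TXNRD1 had more than the 1 shown here. The stretches of 30 bases below show 1 match for each gene, with the core in capitals, so that the letters can be read beside the values of these 3 genes. Positions count from the start of the window shown. For KEAP1 and TXNRD1 that start lies inside the gene coordinates given below. KEAP1 had matches in 1 of its 2 windows, and the TXNRD1 matches not shown were by its other start. All are read 5′ to 3′ on the strand of the gene, where each of these 3 cores is the reverse complement of the letters searched.
GCLM, chr1:93909445-93909474, minus strand, core at positions -34 to -26 from the start: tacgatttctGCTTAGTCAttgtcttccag
KEAP1, chr19:10502783-10502812, minus strand, core at positions -31 to -23: gcccggctctGCTTAGTCAtggtgacctgc
TXNRD1, chr12:104286920-104286949, plus strand, core at positions -102 to -94: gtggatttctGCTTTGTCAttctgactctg
The same 9 letters, GCTTAGTCA, stood in GCLM and in KEAP1. NFE2L2 had 2 windows, and 1 of them held no ETS element. The other held the ETS element CCGGAAG, the kind of sequence that GABPA binds and that 10.3% of all windows hold. The start of that window lies well inside the gene coordinates given below, so it is not the only start of the gene. The element was at positions 4 to 10 after that start (chr2:177264108-177264137, minus strand, read on the strand of the gene):
NFE2L2: cggcccggccCTTCCGGggctgcgcggctc
The AP-1 element TGAGTCA, present in 4.95% of all windows, was in no window of the 8 genes. A match is a description of letters, not evidence of binding.

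Libraries held between 19499090 and 29999290 counts. The authors deposited whole read counts per gene, and the levels below are CPM, counts at a common library size, after TMM scaling over the 12 libraries, which takes most genes as unchanged. Scaling matters against siNC, since the 100 genes with most counts took between 18.4% and 18.5% of each siNC library but 14.9% to 16.3% of the libraries of targeting siRNAs. Mitochondrially encoded genes took 4.61% to 4.79% of the counts in siNC, 4.85% to 5.39% in siGABPA, 3.43% to 3.63% in siGPD1L and 4.197% to 4.63% in siBRD9, and their part in the results was not tested. With total counts in place of TMM, the median log2 fold change of all genes moved from 0.02 to 0.24 for siGABPA, from 0.01 to 0.18 for siGPD1L and from 0.01 to 0.13 for siBRD9, each against siNC. Fold changes come from edgeR's quasi-likelihood test in a fit of the 6 libraries compared, with Benjamini-Hochberg adjusted p over all genes tested, and a gene was called higher or lower at an adjusted p below 0.05 and a fold change above 1.5. The smallest two-sided p of an exact permutation test is 0.1 at 3 libraries per group, and it was 0.1 wherever the libraries of 2 groups did not overlap. In RNA from whole cultures, fewer cells with a transcript and less of it per cell cannot be told apart.

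The labels were checked on the targeted genes. GABPA was 46.0 ± 4.45 CPM (SD, n = 3 libraries) in siNC, 15.6 ± 1.31 in siGABPA, 25.6 ± 0.546 in siGPD1L and 27.2 ± 2.77 in siBRD9, so its mRNA was below siNC in all targeting groups and lowest in its own. GABPA shares exon bases with ATP5PF on the opposite strand, which had 12635 counts over the 12 libraries against 8326 for GABPA, and without the strand setting reads on those bases cannot be told apart. GPD1L was 19.5 ± 0.642 CPM in siNC and 6.66 ± 0.788 in siGPD1L (log2 fold change -1.56). BRD9 was 100.5 ± 1.90 CPM in siNC and 25.2 ± 2.27 in siBRD9 (log2 fold change -1.99), with 77.7 ± 4.64 in siGABPA and 76.4 ± 4.38 in siGPD1L. It shares exon bases with TRIP13 on the opposite strand, which had 40873 counts against 21235 for BRD9, so the limit given for GABPA holds here too. ZDHHC11, on the same strand, also shares exon bases with BRD9 and had 777 counts. Markers of renal carcinoma epithelium were present, among them PAX8 at a mean of 225 CPM and KRT8 at 1030.2 CPM in siNC, but their levels differed between groups. The 7 markers summed to between 2597 and 2657 CPM in the siNC libraries and 1878 to 1894 in those of siGABPA, 2376 to 2453 in siGPD1L and 2521 to 2525 in siBRD9. Mean VIM was 996 CPM in siNC, 481 in siGABPA, 940 in siGPD1L and 841 in siBRD9. Mean KRT8 was 702 CPM in siGABPA, 644 in siGPD1L and 719 in siBRD9. EPAS1 had 35.0 CPM in siNC and 74.8, 86.5 and 109 in siGABPA, siGPD1L and siBRD9. Markers of leukocytes, endothelium and fibroblasts were at or near 0, with 0 counts of CD3E and 409 counts of PDGFRB, the most abundant of them, over all 12 libraries.

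Divided by the exonic length of each gene, mean levels in siNC ran from 193 CPM per kb for TXNRD1 and 124 for GPX4, through 42.5 for NQO1, 37.4 for GCLM, 23.4 for NFE2L2, 20.9 for KEAP1 and 16.3 for SLC7A11, to 6.09 for HMOX1, 5.12 for GCLC and 0.713 for SRXN1. TXNRD1 was highest per kb and SRXN1 lowest in all 4 groups. When the 4 groups were tested together over the 12 libraries, 9 of the 10 genes differed at an edgeR adjusted p below 0.05, beside 83.7% of the 17005 genes tested. SRXN1, the least abundant, was the exception (edgeR adjusted p = 0.0589). Most genes in this experiment differed in that test, so that count does not set the 9 apart.

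**Figure D1:**
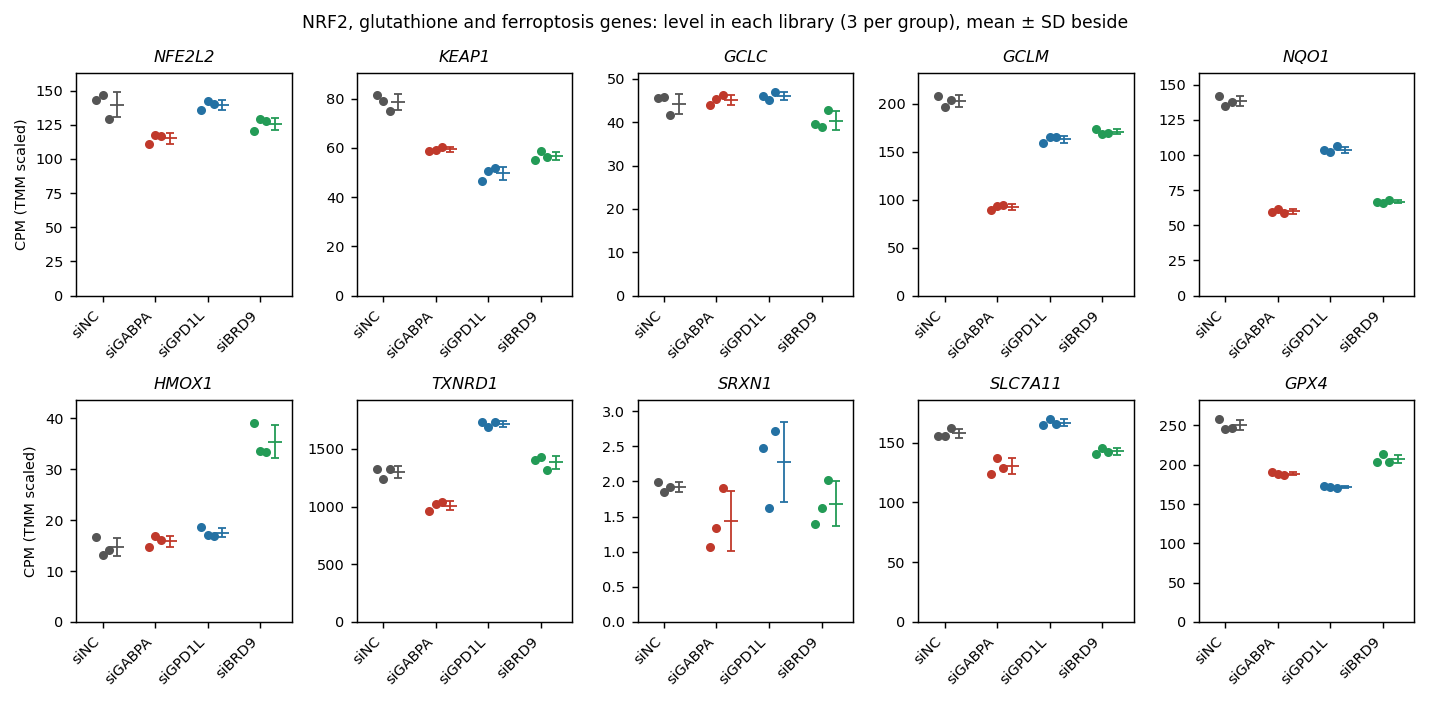
Level of each of the 10 genes in every library, in CPM after TMM scaling on a linear axis from 0, by siRNA group. Points are the 3 libraries of a group, and the bar beside them is the mean ± SD; GCLM is lowest in siGABPA, HMOX1 is highest in siBRD9 and the SRXN1 groups overlap.

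NFE2L2 (ENSG00000116044, chromosome 2, 177227595 to 177392697, minus strand, coordinates of GRCh38 in GENCODE release 29 here and below), which encodes NRF2, had 143, 146 and 129 CPM in the siNC libraries and 111, 118 and 117 in siGABPA. It had 136, 142 and 140.4 CPM in siGPD1L and 121, 129 and 127 in siBRD9. Levels in siNC and siGPD1L overlapped, siBRD9 lay lower and siGABPA lowest. The place of siBRD9 rested on the scaling, since with total counts it did not differ past the threshold from siNC (log2 fold change -0.02, edgeR adjusted p = 0.786) or from siGABPA (-0.06 for siGABPA over siBRD9, edgeR adjusted p = 0.183), and without siBRD9 replicate 1 it did not pass against siNC (edgeR adjusted p = 0.0751). NFE2L2 fell in siGABPA against siNC by 0.29 on the log2 scale (standard error 0.0425, edgeR adjusted p = 7.34e-06), which left 81.6% of the control level and did not reach the fold change of a call. With total counts it was -0.08 and did not pass the test (edgeR adjusted p = 0.121). Between siGPD1L and siNC the log2 fold change was -0.0060 (95% interval -0.09 to 0.08). With total counts it turned to 0.16 and passed the test (edgeR adjusted p = 0.00209). The gene model of NFE2L2 shares exon bases with AGPS on the opposite strand, a gene of ether lipid synthesis that had 208 ± 2.06 CPM in siNC and between 117 and 129 in the targeting groups. The strand setting of the counting is not given in the sources used here, so reads on those shared bases cannot be told apart.

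KEAP1 (ENSG00000079999, chromosome 19, 10486120 to 10503741, minus strand), the adaptor that keeps NRF2 low, was itself below the control in all targeting groups. It had 81.5, 79.1 and 75.1 CPM in siNC and 58.8, 58.9 and 60.5 in siGABPA. With siGPD1L it had 46.6, 50.5 and 51.7 CPM and with siBRD9 55.2, 58.6 and 56.3. No targeting library reached the lowest siNC library. KEAP1 was called lower in siGPD1L, at 63.0% of siNC (log2 fold change -0.67, standard error 0.0477, edgeR adjusted p = 5.22e-11). That call was lost with total counts, which gave -0.50, whereas relative to the median of all genes the main value was -0.68. The call was also lost when the fold change of 1.5 was itself tested with glmTreat. In siGABPA and siBRD9 KEAP1 fell by less than the fold change of a call, by 0.42 and 0.46 on the log2 scale, and these groups did not differ from each other past the threshold (log2 fold change 0.06, 95% interval -0.03 to 0.15, edgeR adjusted p = 0.266), although with total counts they did (0.14, edgeR adjusted p = 0.0113). Against siNC, total counts gave log2 fold changes of -0.20 in siGABPA and -0.33 in siBRD9.

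The subunits of glutamate-cysteine ligase, the enzyme of the rate-limiting step of glutathione synthesis, did not move together. GCLM (ENSG00000023909, chromosome 1, 93885205 to 93909456, minus strand), the modifier subunit, had 208, 197 and 204 CPM in siNC and 89.4, 93.6 and 95.02 in siGABPA. In siGPD1L it had 159, 165 and 165 CPM, and in siBRD9 174, 169 and 169.7. The siGABPA libraries stood well below all others, and siGPD1L and siBRD9 lay between them and siNC. GCLM was called lower in siGABPA, at 45.2% of siNC (log2 fold change -1.14, standard error 0.0354, edgeR adjusted p = 6.48e-15), and it stayed between -1.18 and -1.11 with each library left out in turn. It fell by 0.32 in siGPD1L and by 0.23 in siBRD9 on the log2 scale, below the fold change of a call, and those groups did not differ past the threshold (log2 fold change -0.08, 95% interval -0.15 to -0.0033, edgeR adjusted p = 0.0925). With total counts the log2 fold changes against siNC were -0.93 in siGABPA, -0.15 in siGPD1L and -0.11 in siBRD9.

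GCLC (ENSG00000001084, chromosome 6, 53497341 to 53616970, minus strand), the catalytic subunit, had 45.5, 45.7 and 41.6 CPM in siNC and 43.9, 45.3 and 46.2 in siGABPA. The siGPD1L libraries had 46.0, 45.2 and 47.1 CPM and the siBRD9 libraries 39.6, 38.8 and 42.8. The groups siNC, siGABPA and siGPD1L overlapped, and siBRD9 had the lowest mean but overlapped siNC. GCLC did not pass the test against siNC in any group, with a log2 fold change of 0.02 in siGABPA (95% interval -0.09 to 0.12). With total counts it passed in siGABPA and siGPD1L, at log2 fold changes of 0.23 in each (edgeR adjusted p = 0.000366 and 0.000456). Against siNC the siBRD9 value was -0.12 and passed in the fit of all 12 libraries (-0.13, edgeR adjusted p = 0.0288), without siNC replicate 3 (-0.17, edgeR adjusted p = 0.0220) and without siBRD9 replicate 3 (-0.15, edgeR adjusted p = 0.0323), while total counts turned it to 0.0061. The siBRD9 level was below siGPD1L and siGABPA (edgeR adjusted p = 0.00598 and 0.0148), by differences short of the fold change of a call. The difference from siGABPA did not pass with DESeq2 (adjusted p = 0.0688), nor without siGABPA replicate 2 or 3 or siBRD9 replicate 1 or 2 (edgeR adjusted p between 0.0518 and 0.0775). Mean GCLM fell from 203 ± 5.98 CPM in siNC to 92.7 ± 2.94 in siGABPA (SD, n = 3) while mean GCLC was 44.3 ± 2.30 and 45.1 ± 1.16 CPM.

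SLC7A11 (ENSG00000151012, chromosome 4, 138164097 to 138242349, minus strand), the cystine-glutamate exchanger that supplies cysteine for glutathione, had 156, 156 and 162 CPM in siNC and 124, 137 and 129 in siGABPA. It had 165, 169.9 and 165 CPM in siGPD1L and 140.1, 145 and 142 in siBRD9. The order was siGPD1L, siNC, siBRD9 and siGABPA, with no shared values between neighbours. With total counts the steps from siNC to siBRD9 (log2 fold change -0.0080, edgeR adjusted p = 0.855) and from siBRD9 to siGABPA (-0.07, edgeR adjusted p = 0.145) did not pass the test. As reported, siGPD1L and siNC did not differ past the threshold (log2 fold change 0.08, edgeR adjusted p = 0.0609), but with total counts they did (0.25, edgeR adjusted p = 2.41e-06). They also did with at least 10 counts in every library (0.11, edgeR adjusted p = 0.00827). Without siNC replicate 3 or siGPD1L replicate 1 or 3 they passed as well (edgeR adjusted p between 0.0387 and 0.0408). SLC7A11 fell in siGABPA to 81.7% of siNC (log2 fold change -0.29, standard error 0.0383, edgeR adjusted p = 2.22e-06) and was not called in any comparison. With total counts that change was -0.07 and did not pass the test (edgeR adjusted p = 0.0799). The antisense gene SLC7A11-AS1, which shares exon bases with it, had 499 counts over the 12 libraries, against 45461 for SLC7A11.

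NQO1 (ENSG00000181019, chromosome 16, 69706996 to 69726951, minus strand), a quinone reductase and a widely used readout of NRF2, varied between groups about as widely as HMOX1. On the scale of log2 (CPM + 2) its group means spanned 1.18 and those of HMOX1 1.17, the widest of the 10 genes, while the ratio of the highest to the lowest mean CPM was 2.31 for NQO1 and 2.42 for HMOX1. It had 142, 135 and 138 CPM in siNC and 59.2, 61.9 and 58.9 in siGABPA. Values were 103, 102 and 106 CPM for siGPD1L and 66.8, 65.8 and 68.1 for siBRD9. No 2 groups overlapped, in the order siNC, siGPD1L, siBRD9 and siGABPA. NQO1 was called lower in siGABPA, at 42.9% of siNC (log2 fold change -1.22, standard error 0.0376, edgeR adjusted p = 6.18e-15), and in siBRD9, at 48.7% (log2 fold change -1.04, standard error 0.0395, edgeR adjusted p = 1.89e-14). In siGPD1L it fell by 0.42 on the log2 scale, short of a call. With total counts the log2 fold changes were -1.002 in siGABPA, -0.91 in siBRD9 and -0.25 in siGPD1L.

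HMOX1 (ENSG00000100292, chromosome 22, 35380361 to 35394214, plus strand), heme oxygenase 1, which breaks heme down to biliverdin, carbon monoxide and iron, moved in the other direction. It had 16.6, 13.2 and 14.1 CPM in siNC and 14.7, 16.8 and 16.0 in siGABPA. For siGPD1L the values were 18.6, 17.1 and 16.9 CPM, for siBRD9 39.1, 33.5 and 33.5. Each siBRD9 library was above all 9 others, while siNC and siGABPA overlapped. HMOX1 was called higher in siBRD9, at 245% of siNC (log2 fold change 1.29, standard error 0.0841, edgeR adjusted p = 5.46e-11). Leaving out each library in turn gave between 1.21 and 1.39. In siGABPA it did not differ from siNC past the threshold (log2 fold change 0.10, 95% interval -0.08 to 0.29), though with total counts it did (0.32, edgeR adjusted p = 0.00297). HMOX1 in siGPD1L was above siNC by a log2 fold change of 0.26 (edgeR adjusted p = 0.0114), short of a call. That difference did not pass with DESeq2 (adjusted p = 0.0501) or without siNC replicate 2 (edgeR adjusted p = 0.0792).

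TXNRD1 (ENSG00000198431, chromosome 12, 104215779 to 104350305, plus strand), the selenoenzyme that reduces cytosolic thioredoxin, had 1328, 1237 and 1326 CPM in siNC and 962, 1024 and 1037 in siGABPA. It had 1735, 1686 and 1732 CPM in siGPD1L and 1402, 1429 and 1321 in siBRD9. The siGPD1L libraries were above and the siGABPA libraries below all others, while siBRD9 overlapped siNC. TXNRD1 rose in siGPD1L by a log2 fold change of 0.40 (standard error 0.0313, edgeR adjusted p = 2.22e-10) and fell in siGABPA by 0.38 (standard error 0.0320, edgeR adjusted p = 6.55e-09), neither of which reached a call against siNC. With total counts these log2 fold changes were 0.57 and -0.16. TXNRD1 in siBRD9 was above siNC by a log2 fold change of 0.11 (edgeR adjusted p = 0.0140), which did not pass without siNC replicate 2 (edgeR adjusted p = 0.132).

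SRXN1 (ENSG00000271303, chromosome 20, 646615 to 653370, minus strand), sulfiredoxin, which restores overoxidized peroxiredoxins, had few reads. There were 39, 37 and 43 counts in the siNC libraries and 31, 38 and 53 in those of siGABPA. The siGPD1L libraries held 70, 48 and 77 counts, the siBRD9 libraries 42, 32 and 45. Its CPM values overlapped between all 4 groups, and no group differed from siNC past the threshold. In siGABPA the log2 fold change of -0.43 ran from -0.68 to -0.25 with a library left out, and without siGABPA replicate 3 it was a call (-0.68, edgeR adjusted p = 0.0226). At this depth its 95% intervals against siNC spanned from -0.93 to 0.06 in siGABPA and from -0.22 to 0.69 in siGPD1L on the log2 scale.

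GPX4 (ENSG00000167468, chromosome 19, 1103926 to 1106791, plus strand), the peroxidase that protects membranes from ferroptosis, had 258, 246 and 247 CPM in siNC and 191, 188 and 187 in siGABPA. With siGPD1L it had 173, 172 and 171 CPM and with siBRD9 204, 214 and 204. No 2 groups overlapped, and siNC was highest and siGPD1L lowest. GPX4 fell to 68.5% of siNC in siGPD1L (log2 fold change -0.55, standard error 0.0336, edgeR adjusted p = 4.32e-12), to 74.7% in siGABPA and to 83.5% in siBRD9. None of these reached the fold change of a call, and with total counts the log2 fold changes were -0.38, -0.20 and -0.13.

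Set against siNC as a group, few of the 10 genes were called. In siGABPA 2 were lower (GCLM and NQO1) and 0 higher, beside 36.5% of the 16140 genes tested called in either direction, 21.3% higher and 15.2% lower. In siGPD1L 1 was lower (KEAP1), beside 35.8% of 15929 genes (20.4% higher and 15.5% lower), and in siBRD9 1 was lower (NQO1) and 1 higher (HMOX1), beside 28.2% of 15475 genes (16.7% higher and 11.5% lower). Counted in either direction, each of these shares of the 10 genes was below the background, while in siGABPA the 2 of 10 called lower stood slightly above the share of all genes called lower. In siGPD1L the number called was 0 with total counts and 0 with glmTreat against a fold change of 1.5. At an adjusted p below 0.05 without a fold change, 7, 6 and 8 of the 10 passed, beside 72.7%, 71.6% and 67.3% of all genes, and 7 of 10 had libraries that did not overlap in each comparison, beside 74.9%, 73.6% and 70.2%. Over the 10 genes the median log2 fold change was -0.40 in siGABPA, 0.02 in siGPD1L and -0.17 in siBRD9, while that of all genes tested was 0.02, 0.01 and 0.01. With total counts these medians were -0.18, 0.19 and -0.04 for the 10 genes. The comparisons share the siNC libraries, so their values are given side by side and not as separate support.

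**Figure D2:**
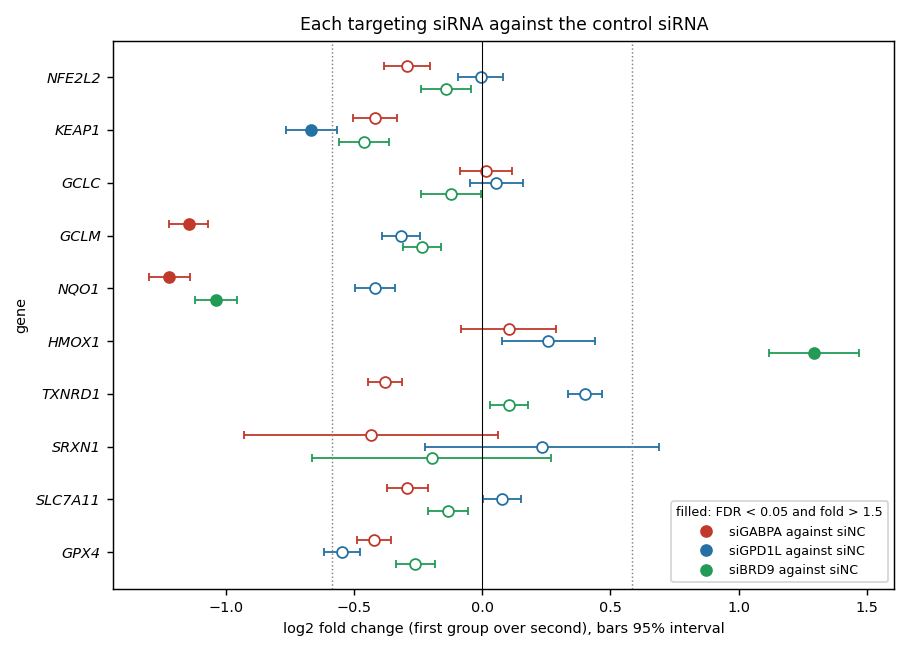
Log2 fold change of each gene in siGABPA, siGPD1L and siBRD9 against siNC, with bars for the 95% interval of the edgeR fit and dotted lines at a fold change of 1.5 in either direction. Filled points were called; GCLM and NQO1 lie past the lower line in siGABPA, KEAP1 in siGPD1L and NQO1 in siBRD9, and HMOX1 lies past the upper line in siBRD9.

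The targeting siRNAs were also compared with each other, which leaves out the siNC libraries. Against siGPD1L, 4 of the 10 genes were called lower in siGABPA and 0 higher, beside 15.4% of the 16548 genes called in either direction, 8.54% higher and 6.90% lower. They were GCLM (log2 fold change -0.82, standard error 0.0347, edgeR adjusted p = 3.38e-16), NQO1 (-0.79), TXNRD1 (-0.77) and SRXN1. SRXN1 (-0.66, standard error 0.236, edgeR adjusted p = 0.0212) had libraries that overlapped, and its call was lost with DESeq2 (adjusted p = 0.0693) and when siGABPA replicate 1 or 2 or siGPD1L replicate 1 or 3 was left out, which gave between -0.61 and -0.49. NFE2L2 and SLC7A11 were also lower in siGABPA than in siGPD1L, by 0.28 and 0.36 on the log2 scale, and KEAP1 was higher, by 0.26. The median of the 10 genes was -0.32, while that of all genes tested was 0.01.

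Against siBRD9, 2 genes were called lower in siGABPA, beside 14.3% of 16357 genes (8.52% higher and 5.74% lower): GCLM, at 53.8% of the siBRD9 level (log2 fold change -0.89, standard error 0.0352, edgeR adjusted p = 1.75e-16), and HMOX1, at 44.3% (log2 fold change -1.17, standard error 0.0710, edgeR adjusted p = 5.36e-13). NQO1, called in both of these groups against siNC, differed little between them (log2 fold change -0.17, 95% interval -0.25 to -0.08, edgeR adjusted p = 0.00156), a difference that did not pass with total counts (-0.09, edgeR adjusted p = 0.0668). The median of the 10 genes was -0.16, against 0.01 for all genes tested.

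Between siGPD1L and siBRD9, 1 gene was called higher and 1 lower in siGPD1L, beside 6.92% of 16240 genes (4.01% higher and 2.91% lower). NQO1 was higher, at 154% of siBRD9 (log2 fold change 0.63, standard error 0.0396, edgeR adjusted p = 1.03e-12), and HMOX1 was lower, at 49.1% (log2 fold change -1.03, standard error 0.0695, edgeR adjusted p = 3.63e-12). When the fold change of 1.5 was itself tested with glmTreat, 1 of the 10 genes was called. Over the 3 comparisons 8 of the 10 genes each time had an adjusted p below 0.05, beside 54.1%, 53.2% and 39.3% of all genes. Libraries did not overlap for 8, 9 and 9 genes, beside 59.3%, 58.7% and 47.6%. Over the 10 genes the median was 0.16 between siGPD1L and siBRD9, and that of all genes tested 0.01.

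**Figure D3:**
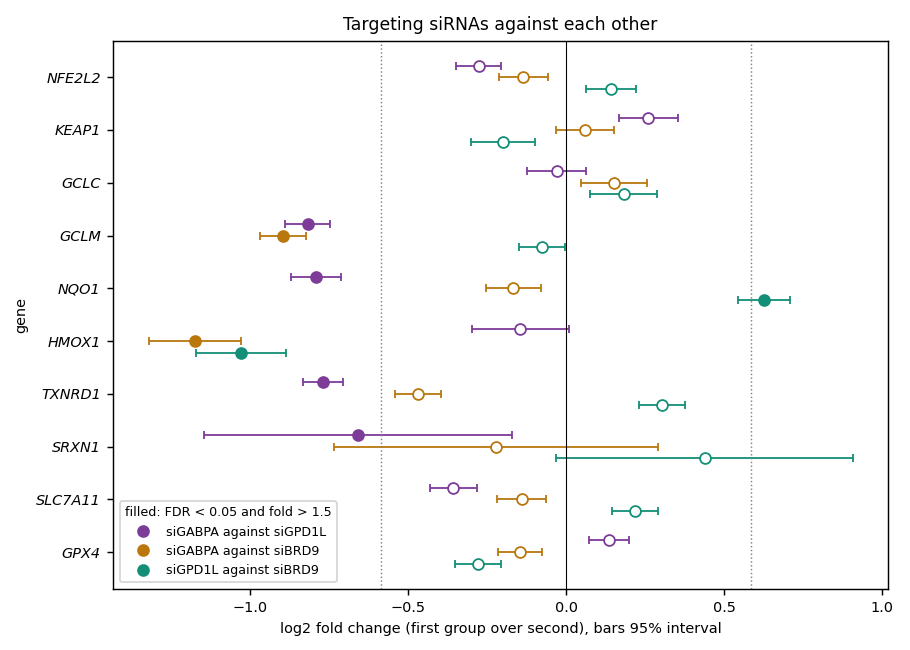
Log2 fold change of each gene between pairs of targeting siRNAs, first group over second, with bars for the 95% interval of the edgeR fit and dotted lines at a fold change of 1.5. Filled points were called; GCLM lies near -0.82 and -0.89 in siGABPA against siGPD1L and siBRD9, and HMOX1 near -1.17 and -1.03 against siBRD9.

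Genes that resembled NFE2L2 and NQO1 most were found by Pearson's r of log2 CPM over the 12 libraries, among 9784 genes with a mean of at least 10 CPM. For NFE2L2 they were TAX1BP1 (r = 0.942), DNAJC21 (0.939) and COPB1 (0.936), each with its lowest mean in siGABPA. For NQO1 they were AAED1 (0.990), TOP1 (0.987) and GOLIM4 (0.985), which kept the order siNC, siGPD1L, siBRD9 and siGABPA of NQO1 over a narrower range. AAED1 had means of 49.4, 41.7, 34.2 and 31.7 CPM in that order. These r values describe 12 libraries that form 4 groups, in which many genes differ.

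The wider pathway was described with 9 lists of other genes, given as genes called higher and lower among those tested. The share of each list called in siGABPA, siGPD1L and siBRD9, in that order, is to be read beside the 36.5%, 35.8% and 28.2% of all genes called against siNC. The partners and regulators of NRF2 numbered 20. In siGABPA 4 rose and 5 fell of 20 tested, in siGPD1L 7 rose and 2 fell of 19, and in siBRD9 4 rose and 1 fell of 19. Those shares were 45%, 47.4% and 26.3%. With total counts the siGABPA split turned to 7 higher and 2 lower. The genes that rose included small MAF proteins, the partners NRF2 needs to bind DNA. MAFF had 10.4, 9.46 and 10.99 CPM in siNC and 34.6, 32.9 and 37.5 in siGABPA. The siGPD1L libraries had 87.4, 80.8 and 77.3 CPM and the siBRD9 libraries 52.5, 56.1 and 47.5. Its groups did not overlap, and the log2 fold change against siNC was 1.75, 2.98 and 2.35 (standard errors 0.0755, 0.0662 and 0.0776). MAFK rose from 25.4 ± 1.19 CPM in siNC to 53.9 ± 0.691 in siGABPA, 56.03 ± 1.43 in siGPD1L and 44.9 ± 1.79 in siBRD9. USP11, a deubiquitinase that acts on NRF2, was 16.7 ± 0.687 CPM in siGABPA and between 35.6 and 40.7 in the other groups, and was called lower in siGABPA in all 3 of its comparisons.

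**Figure D4:**
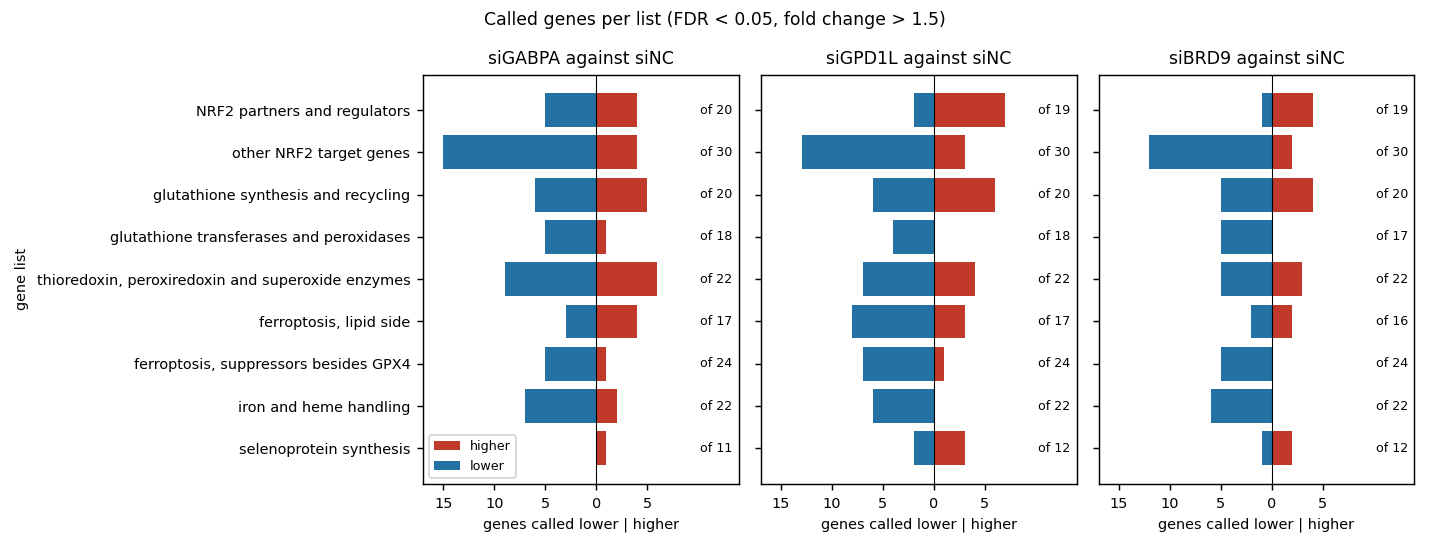
Number of genes called higher (right of 0) and lower (left of 0) in each of 9 gene lists, for each targeting siRNA against siNC, with the number tested at the right. Other NRF2 target genes show 15, 13 and 12 lower against 4, 3 and 2 higher.

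Among 34 other genes known as NRF2 targets, 30 could be tested against siNC, and more fell than rose. In siGABPA 15 fell and 4 rose, in siGPD1L 13 fell and 3 rose, and in siBRD9 12 fell and 2 rose. These are 63.3%, 53.3% and 46.7% of the genes tested, beside 36.5%, 35.8% and 28.2% of all genes, and the list's median log2 fold change was -0.53, -0.53 and -0.50. With total counts the medians were -0.32, -0.36 and -0.37, and 6 fell and 4 rose, 7 fell and 4 rose, and 8 fell and 2 rose. Of all genes 1387 then fell and 4854 rose of 16140, 1572 and 4196 of 15929, and 1213 and 3299 of 15475. The share of the list called in either direction was then below that of all genes in siGABPA, near it in siGPD1L and above it in siBRD9. The share called lower stayed above that of all genes in each group. The aldo-keto reductases AKR1B1 and AKR1B10 fell in all targeting groups. AKR1B1 had 2005, 1812 and 1999 CPM in siNC and 758, 746 and 717 in siGABPA. Values were 407, 411 and 426 CPM for siGPD1L and 862, 862 and 913 for siBRD9. Its groups did not overlap, and it was called between all pairs of groups except siGABPA and siBRD9. AKR1B10 was 33.7 ± 1.30 CPM in siNC and between 5.55 and 6.86 in the targeting groups, and since it resembles its relatives in sequence, its reads may be partly theirs. ABCC3, an exporter of conjugated anions, rose from 10.1 ± 0.356 CPM to 52.5 ± 3.23 in siGABPA, 53.4 ± 2.63 in siGPD1L and 54.1 ± 1.56 in siBRD9. SLC48A1, a heme transporter, was 73.8 ± 3.19 CPM in siGABPA, 43.3 ± 1.63 in siNC, 45.2 ± 2.001 in siBRD9 and 28.8 ± 1.39 in siGPD1L. Between targeting groups the list had 2 higher and 3 lower of 31 in siGABPA against siGPD1L, 3 higher of 30 against siBRD9, and 2 each way of 30 between siGPD1L and siBRD9, which were 16.1%, 10.0% and 13.3% of the genes tested, beside 15.4%, 14.3% and 6.92% of all genes.

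Genes of glutathione synthesis and recycling split evenly. Of 20 tested, 5 rose and 6 fell in siGABPA, 6 rose and 6 fell in siGPD1L, and 4 rose and 5 fell in siBRD9, which total counts turned to 6 and 4, 6 and 2, and 6 and 3. The called shares of this list were 55.0%, 60.0% and 45%. CTH, which makes cysteine from cystathionine, rose from 9.21 ± 0.522 CPM in siNC to 29.8 ± 1.15, 27.4 ± 2.51 and 18.8 ± 1.02 in siGABPA, siGPD1L and siBRD9. CHAC1, which degrades glutathione, was set apart in siGABPA, with 29.4, 28.98 and 27.6 CPM against 14.2, 11.7 and 14.5 in siNC. It had 13.2, 15.2 and 13.7 CPM in siGPD1L and 12.3, 11.05 and 12.1 in siBRD9, and it was called higher in siGABPA against each of the other groups (log2 fold change 1.07, 1.03 and 1.26 against siNC, siGPD1L and siBRD9). Among the glutathione transferases and peroxidases 1 rose and 5 fell of 18 in siGABPA, 0 rose and 4 fell of 18 in siGPD1L, and 0 rose and 5 fell of 17 in siBRD9. These were 33.3%, 22.2% and 29.4% of the list. With total counts the splits were 3 and 2, 1 and 3, and 0 and 2. GSTO1 was 64.2 ± 2.54 CPM in siGABPA and 122 ± 4.001, 109.8 ± 3.20 and 118 ± 4.78 in siNC, siGPD1L and siBRD9.

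The thioredoxin, peroxiredoxin and superoxide enzymes held 22 tested genes, of which 6 were higher and 9 lower in siGABPA, 4 higher and 7 lower in siGPD1L, and 3 higher and 5 lower in siBRD9, which total counts turned to 7 and 6, 4 and 3, and 6 and 2. Called genes made up 68.2%, 50% and 36.4% of that list. TXNIP, the inhibitor of thioredoxin, showed the largest rise of the genes named here. It had 47.8, 51.6 and 49.3 CPM in siNC and 575, 587 and 568 in siGABPA. For siGPD1L the values were 602, 652 and 619 CPM, for siBRD9 375, 362 and 377, with log2 fold changes of 3.53, 3.65 and 2.92 against siNC. All 9 targeting libraries were far above the siNC libraries, and siBRD9 lay below the other two targeting groups. SESN2, a stress-inducible sestrin, rose from 45.4 ± 3.92 CPM to 135 ± 0.918, 98.3 ± 3.34 and 90.0 ± 4.61. SOD2, the mitochondrial superoxide dismutase, had 102, 97.8 and 92.1 CPM in siGABPA and 248, 259 and 248 in siBRD9, on either side of 186, 179 and 182 in siNC. It was called lower in siGABPA against siNC and against siBRD9 (log2 fold change -0.92 and -1.38), and lower in siGPD1L against siBRD9 (-0.997). Of 12 genes of selenoprotein synthesis, on which GPX4 and TXNRD1 depend, 1 rose of 11 tested in siGABPA, 3 rose and 2 fell of 12 in siGPD1L, and 2 rose and 1 fell in siBRD9. That was 9.09%, 41.7% and 25.0% of the list. Total counts gave 2 and 0, 4 and 1, and 3 and 1, and in siGABPA the single call became 2 with DESeq2, 3 without siNC replicate 2, and 2 without siNC replicate 3 or siGABPA replicate 1. SEPSECS, which makes selenocysteine on its tRNA, rose from 9.85 ± 0.426 CPM to 21.7 ± 1.01, 20.3 ± 1.14 and 17.1 ± 0.308. SEPHS1 was called lower in siGPD1L and siBRD9, by 0.93 and 0.89 on the log2 scale. In siGABPA SEPHS1 was also below siNC but not called, with 110.6 ± 1.38 CPM there and 164 ± 5.96 in siNC.

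Lipid genes of ferroptosis were mostly higher in siGABPA than in siGPD1L where they were called. Against siNC, 4 rose and 3 fell of 17 in siGABPA, 3 rose and 8 fell of 17 in siGPD1L, and 2 rose and 2 fell of 16 in siBRD9, and with total counts 5 and 0, 4 and 6, and 2 and 0. As shares these were 41.2%, 64.7% and 25.0% with TMM. Directly compared, 7 were higher and 1 lower of 17 in siGABPA than in siGPD1L, beside 15.4% of all genes called, and total counts gave the same counts. FADS2, a fatty acid desaturase, had 576, 562 and 596 CPM in siNC and 633, 641 and 624 in siGABPA. With siGPD1L it had 277, 261 and 321 CPM and with siBRD9 529, 508 and 527. LPCAT3, which places polyunsaturated chains in phospholipids, was 14.1 ± 1.90 CPM in siGPD1L and 29.7 ± 3.27 in siGABPA. It was 26.8 ± 1.21 CPM in siNC and 17.2 ± 1.09 in siBRD9, and was called lower in siGPD1L and siBRD9 against siNC. Of 24 suppressors of ferroptosis other than GPX4, 1 rose and 5 fell in siGABPA, 1 rose and 7 fell in siGPD1L, and 0 rose and 5 fell in siBRD9, with total counts 1 and 3, 2 and 5, and 0 and 2. FADS2 is in this list as well as among the lipid genes, so its fall in siGPD1L against siNC was counted in both. At 25.0%, 33.3% and 20.8% with TMM, the shares called in either direction were below those of all genes. With TMM the 5, 7 and 5 of 24 called lower stood above the 15.2%, 15.5% and 11.5% of all genes called lower. With total counts 1387 of 16140, 1572 of 15929 and 1213 of 15475 genes were called lower. Beside these the list stayed above in siGABPA and siGPD1L but was near the share of all genes in siBRD9. SCD, the desaturase that makes monounsaturated fatty acids, had 168, 160.2 and 212 CPM in siGPD1L, against 824, 779 and 846 in siNC, 688, 703 and 688 in siGABPA and 542, 531 and 569.6 in siBRD9. It was called lower in siGPD1L against siNC (log2 fold change -2.18, standard error 0.0669) and siBRD9 (-1.61), and higher in siGABPA than in siGPD1L (1.94). PDSS1, of coenzyme Q synthesis, fell in all targeting groups, by 1.58, 1.07 and 0.99 on the log2 scale in siGABPA, siGPD1L and siBRD9.

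Iron and heme genes fell more often than they rose against siNC, except in siGABPA with total counts, where as many rose as fell. Of 22 tested, 2 rose and 7 fell in siGABPA, 0 rose and 6 fell in siGPD1L, and 0 rose and 6 fell in siBRD9, and with total counts 2 and 2, 1 and 5, and 1 and 6. Called genes were 40.9%, 27.3% and 27.3% of the list, and of all genes tested 15.2%, 15.5% and 11.5% were called lower. TFRC, the transferrin receptor that brings iron into the cell, had 275, 278 and 281 CPM in siNC and 83.7, 80.9 and 88.9 in siGABPA. The siGPD1L libraries had 82.5, 87.0 and 81.2 CPM and the siBRD9 libraries 129, 119 and 135. It was called lower in every targeting group (log2 fold change -1.73, -1.74 and -1.11), with siGABPA and siGPD1L overlapping and siBRD9 above them. NCOA4, the receptor through which ferritin is degraded to release iron, fell from 393 ± 2.93 CPM in siNC to 232 ± 4.55 in siGABPA, 167 ± 5.55 in siGPD1L and 228 ± 7.25 in siBRD9.

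**Figure D5:**
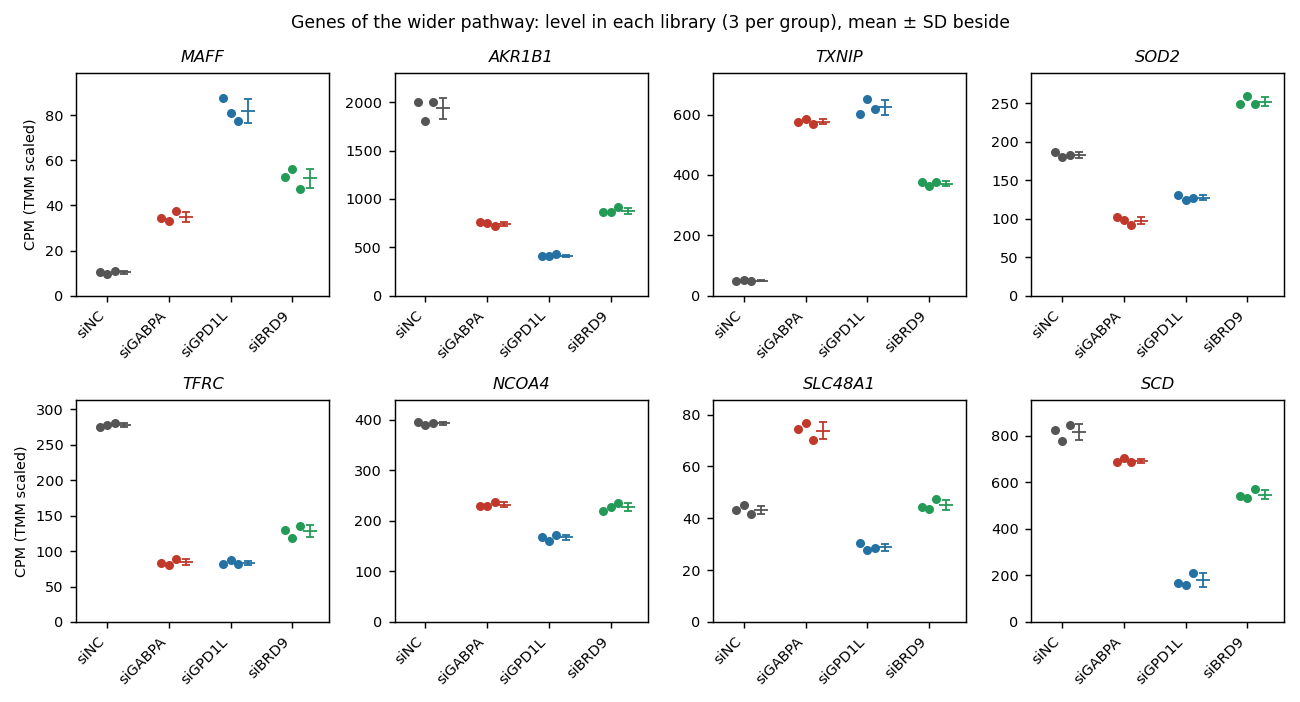
Level of 8 genes of the wider pathway in every library, in CPM after TMM scaling on a linear axis from 0, by siRNA group. Points are the 3 libraries of a group, and the bar beside them is the mean ± SD; TXNIP and MAFF are above siNC and AKR1B1, TFRC and NCOA4 below it in all targeting groups, while SOD2 is lowest in siGABPA and highest in siBRD9.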

How the data were processed

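Total RNA of 12 libraries of siRNA-transfected 786-O cells was extracted with Trizol and made into Illumina libraries with a NEBNext Ultra kit. The authors deposited raw read counts per gene for 60448 genes, 1 column per library, with no normalization and no pooling of replicates. The study's methods name featureCounts v1.5.0-p3 for counting, whereas the submitters' processing notes name HISAT2, HTSeq, DESeq2 and hg38. The annotation release, strand setting and read filters are not given in the sources used here. The labels name DMEM as the medium and the methods RPMI-1640. Of the identifiers, 56868 are in GENCODE release 29 on GRCh38, from which positions, overlaps and exonic lengths were taken, and 3580 are not.

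Counts were analysed in R 4.3.3 with edgeR 4.0.16 (TMM, filterByExpr, quasi-likelihood test, Benjamini-Hochberg adjustment over all genes tested) in a fit of the 6 libraries of each comparison, and over all 12 for the test of 4 groups. The thresholds on FDR (0.05) and fold change (1.5) follow the study's methods. Permutation tests used log2 CPM with a pseudocount of 2. Scripts were tested on simulated data. DESeq2 1.42.0, limma 3.58.1 (voom), other scalings and filters, a replicate block, glmTreat, FDR alone and each library left out in turn were the alternatives. Replicate pairs differed by 2.51 to 3.91 in chi-square per gene, beyond counting noise, so no library was counted as a duplicate. Where libraries of a group do not come from separate cultures, p-values measure only the spread between these libraries.

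The 10 genes and the 9 lists of other genes were chosen with earlier results of these data known, and 8 of the 34 other NRF2 targets are also in another list. Other lists share genes too, among them FADS2, which is in both lists of ferroptosis genes. Named list genes were up to 3 called genes per direction and comparison with the largest fold change among those without overlap and with 100 or more counts on average, of which the text gives some. GSTT1 was not among the genes counted here, which left 28 of 29 genes of its list. The main fits treated the samples as unpaired, and whether replicate numbers pair them is not given by the labels.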

Additional observations from a re-analysis of the deposited data

How the results depend on the processing

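Of 840 alternative values of the log2 fold changes of the 10 genes, 823 kept their direction and their call at an adjusted p below 0.05 and a fold change above 1.5, 6 lost a call, 2 gained one and 9 changed sign. The changes of sign were in values that did not pass the test as reported. NFE2L2 in siGPD1L against siNC, -0.0060 as reported, was 0.16 with total counts, 0.0086 with no filter beyond 1 count, 0.0281 with at least 10 counts in every library, and between -0.0607 and 0.0242 with a library left out. GCLC in siGABPA against siNC, 0.02 as reported, was between -0.0405 and 0.0433 with a library left out, and with total counts GCLC turned from -0.12 to 0.0061 in siBRD9 against siNC and from -0.03 to 0.0079 in siGABPA against siGPD1L. At an adjusted p below 0.05 alone, 38 of the 840 values changed side, 23 of them no longer passing, and 14 of the 38 came with total counts, which were 60 of the alternatives. The 2 gained calls were both of SRXN1, in siGABPA against siNC without siGABPA replicate 3 and in siGPD1L against siBRD9 without siGPD1L replicate 2. Total counts and glmTreat against a fold change of 1.5 each left 0 of the 10 genes called in siGPD1L against siNC in place of 1, where KEAP1 was the gene called. In siGPD1L against siBRD9, glmTreat left 1 in place of 2. FDR alone raised the number of the 10 genes called to 7 in siGABPA, 6 in siGPD1L and 8 in siBRD9 against siNC, and to 8 in each comparison between targeting siRNAs. With each library left out in turn, between 3 and 4 genes were called in siGABPA against siGPD1L, 2 and 3 in siGABPA against siNC and in siGPD1L against siBRD9, and 8 to 10 differed over the 4 groups. Counts over all genes fell by more than 1.5 times with glmTreat, to 2605 in siBRD9 against siNC, 1022 in siGABPA against siGPD1L, 802 in siGABPA against siBRD9 and 261 in siGPD1L against siBRD9, from 4361, 2556, 2333 and 1124. Total counts moved the share of called genes that were higher from 58.4% to 77.8% in siGABPA, from 56.8% to 72.7% in siGPD1L and from 59.3% to 73.1% in siBRD9 against siNC, and from 59.8% to 70.4% in siGABPA against siBRD9. Of 486 alternative counts for the gene lists, 23 moved by more than 1.5 times. The cause of these shifts was not tested. SRXN1 had 31 to 77 counts per library, and the part of depth in its results was not tested.

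The labels number the replicates alike in each group, and deviations of samples with the same number correlated between -0.137 and 0.127. These values show no large effect shared by samples of the same number. They cannot exclude that such samples came from the same experiment, since samples of different number were not compared. With the replicate block, 2, 1 and 2 of the 10 genes were called in siGABPA, siGPD1L and siBRD9 against siNC and 4, 2 and 2 in siGABPA against siGPD1L, siGABPA against siBRD9 and siGPD1L against siBRD9, as without it. In the test over the 4 groups the block gave 10 genes in place of 9.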
